A study of Mus musculus with 27 samples.

Results

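The genes of retinoid binding and signalling were followed through 27 mouse arrays of the developing cortex. The set comprised 9 genes: the retinoic acid carriers Crabp1 and Crabp2, the enzymes Aldh1a2, Dhrs3 and Cyp26b1, and the receptors Rara, Rarb, Rxra and Rxrg. All probes annotated to these genes were taken, which gave 13 of the 45281 probes of the array. Per the labels, 6 arrays held E13 embryo, 5 held E16 embryo, 5 held Tbr2 conditional knockout (cKO) cortex at E13, 6 held Tbr2 cKO cortex at E16, and 5 held GFP-positive neurons of the Tbr2 lineage from the cortex at postnatal day 2 (P2), where E stands for embryonic day. The embryo columns carry the letters WT, and their labels name no tissue, while those of the cKO arrays name cortex. Of the deleting Cre, the floxed allele, the GFP allele, the strain and the number of animals per array the labels say nothing. The labels call the arrays of a group replicates without saying that they came from separate animals, so the p-values measure the spread between these samples, which may be technical.

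Retinoic acid is made from vitamin A. Retinol is oxidised to retinal, a step that Dhrs3 reverses, and Aldh1a2 oxidises retinal to retinoic acid, which Cyp26b1 breaks down. In the cytoplasm Crabp1 and Crabp2 bind retinoic acid: Crabp2 is known for delivering it to nuclear receptors, Crabp1 for holding it in the cytoplasm and passing it to the enzymes of breakdown. The retinoic acid receptors (Rara, Rarb) pair with the retinoid X receptors (Rxra, Rxrg) and bind direct repeats of a short DNA motif. In the embryonic forebrain the meninges, which express Aldh1a2, are a known source of retinoic acid for the cortex below.

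The Rarb promoter is the textbook example of such a repeat and is shown first, beside the promoter of Crabp1, the carrier detected most often here. Each window runs from 250 bases before to 50 bases after the annotated start, in the RefSeq table for GRCm38.p6. The Rarb window lies at chr14:16575427-16575726 on the minus strand and the Crabp1 window at chr9:54764498-54764797 on the plus strand, and capitals mark the pair of motifs that form the repeat.
Rarb: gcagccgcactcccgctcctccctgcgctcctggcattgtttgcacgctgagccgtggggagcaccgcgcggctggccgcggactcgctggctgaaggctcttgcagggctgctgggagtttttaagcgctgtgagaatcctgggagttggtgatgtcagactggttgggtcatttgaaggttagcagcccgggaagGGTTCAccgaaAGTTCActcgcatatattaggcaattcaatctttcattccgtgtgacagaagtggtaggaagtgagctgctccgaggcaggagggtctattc
Crabp1: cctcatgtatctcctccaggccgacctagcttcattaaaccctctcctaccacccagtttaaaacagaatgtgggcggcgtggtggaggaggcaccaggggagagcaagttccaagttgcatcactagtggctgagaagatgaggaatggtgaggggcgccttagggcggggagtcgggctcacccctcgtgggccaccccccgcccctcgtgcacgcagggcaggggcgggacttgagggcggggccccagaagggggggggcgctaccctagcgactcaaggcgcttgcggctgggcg

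The motifs searched were AGGTCA and its forms AGTTCA or GGGTCA or GGTTCA, on both strands, as direct repeats with a spacer of 1, 2 or 5 bases. RefSeq gave 15 promoters for 8 of the 9 genes, and Crabp2 was not matched. In the Rarb window the repeat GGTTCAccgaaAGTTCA, with a spacer of 5 bases, ended 37 bases before the annotated start. Of all 32851 mouse promoters of this length 32 (0.0974%) held a repeat with that spacer, 88 (0.268%) one with a spacer of 2 bases and 73 (0.222%) one with a spacer of 1. No other promoter of the set held a repeat. A single motif stood in 6 of the 15 promoters and in 43.7% of all promoters, and the Crabp1 window held none. A match of letters is a description of the window only.

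Values below are normalised log2 signals, and a probe was called detected on an array at a detection p-value under 0.01 against the negative control beads. The dimmest detected signals lay at 5.43 to 5.93 on the log2 scale per array, and values under that limit have no reliable order. Only 3 of the 13 probes were detected in at least 5 arrays and so were tested: those of Crabp1 (25 of 27 arrays), Crabp2 (15 of 27) and 1 of the 3 Rarb probes (12 of 27). A probe bright in 1 group alone can pass this filter, so the share of tested probes that changed says nothing of the whole set. The other 10 probes, among them every probe of Aldh1a2, Dhrs3, Cyp26b1, Rara, Rxra and Rxrg, were detected in 0 to 3 arrays.

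Facts of the whole series bear on these values. Eomes, the gene of Tbr2, was not lower in the arrays labelled cKO than in embryo, with a change of 0.27 ± 0.20 (SE, log2) at E13 (11.52 ± 0.10 against 11.25 ± 0.27; SD, n = 5 and 6; limma adjusted p = 0.87) and 0.59 ± 0.20 at E16 (11.09 ± 0.46 against 10.51 ± 0.32; SD, n = 6 and 5; adjusted p = 0.36). The labels do not say which exons of Eomes were deleted, so its probes may lie outside them and check nothing. On the second principal component of the embryonic arrays, array 2 of E13 cKO (10.7) lay within the range of E13 embryo (5.26 to 15.8). Array 3 of E16 cKO (5.89) lay within that of E16 embryo (-4.18 to 12.1). So did array 2 of E16 cKO (-2.8), which was kept, so this range alone does not single out array 3. Genotype results of the tested retinoid probes are given with and without array 2 of E13 cKO and array 3 of E16 cKO. These are called the 2 arrays that stand apart. Leaving out arrays for their likeness to embryo favours a difference, so those values are no independent test. Array 4 of E13 cKO lay at the other end of that component (-26.2). Its summed linear signal of 4 choroid plexus and cortical hem genes was 6620, against 365 to 641 in the other arrays of its group, and that of 7 ventral forebrain and interneuron genes was 4680, against 516 to 1090. Genotype results at E13 are therefore also given without array 4, a choice made after seeing the data. The embryo, cKO and P2 arrays came in 3 separate tables, so table and genotype, and table and the P2 group, cannot be told apart. Of all listed markers with a probe, passing the filter or not, at least 1 P2 array detected 7 of 8 pan-neuronal genes, but also 5 of 6 of the endothelium and pericytes, 6 of 6 of microglia and 9 of 10 of the meninges, although the arrays are labelled as sorted neurons.

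Crabp2 (Entrez Gene 12904; chr3:87948693-87953372) fell steeply between E13 and E16. In the E13 embryo arrays it ran from 7.92 to 9.81 with a median of 8.62, and it was detected in 6 of 6. In the E16 embryo arrays it stood at 5.06, 5.69, 5.66, 5.05 and 5.17, and it was detected in 0 of 5. The groups did not overlap, with 5 of 5 arrays at E16 under the lowest at E13. The mean fell from 8.63 ± 0.67 (SD, n = 6) to 5.32 ± 0.32 (SD, n = 5), which is -3.31 ± 0.25 on the log2 scale (SE; limma adjusted p = 7.9e-10). Since the E16 level was under the background limit, the fold is a bound, at least 7.31-fold lower, with the dim group set at its background limit. In these arrays of tissue, fewer cells that carry a transcript and less of it per cell cannot be told apart.

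The arrays labelled cKO gave the same direction for Crabp2. At E13 they stood at 9.87, 9.48, 9.55, 10.14 and 9.95, and at E16 they ran from 5.05 to 6.47 with a median of 6.02. Again no E16 array reached any E13 array. The mean fell from 9.80 ± 0.28 (SD, n = 5) to 5.88 ± 0.49 (SD, n = 6), by 3.91 ± 0.25 on the log2 scale (SE; limma adjusted p = 5.8e-11). The ratio was 15.1-fold, with 4 of 6 E16 arrays detected, so its size depends on the background. The difference between these falls, tested as the interaction of stage and genotype, was -0.61 ± 0.36 (SE; 95% limits -1.34 to 0.13; adjusted p = 1). Crabp2 was 1 of 3 tested retinoid probes that fell with stage in embryo and 1 of 3 in the cKO arrays. Over all 20498 tested probes 10.7% fell in embryo and 11.3% in the cKO arrays.

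**Figure D1:**
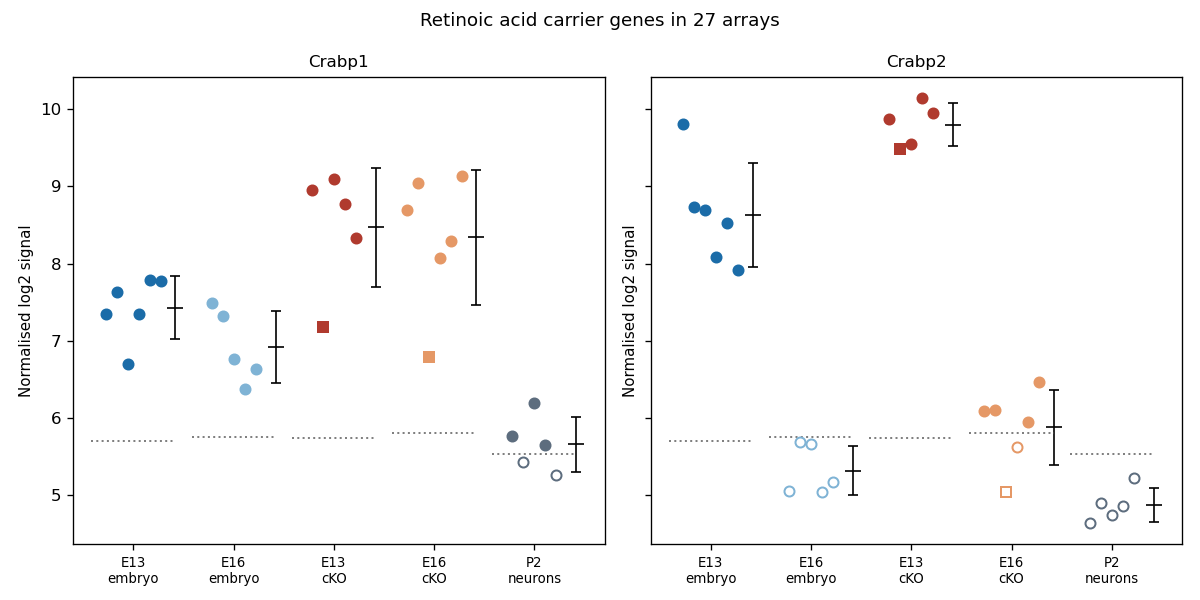
Normalised log2 signal of Crabp1 and Crabp2 on each of 27 arrays by group, with the group mean ± SD in black beside the points. Filled points are detected and open points not, dotted lines mark the mean background limit of the group, and squares mark array 2 of E13 cKO and array 3 of E16 cKO. Crabp2 lies between 7.92 and 10.14 at E13 and at or below 6.47 in every later array, while Crabp1 spans 6.38 to 9.14 over the embryonic groups and 5.26 to 6.19 in the P2 neurons.

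At E13 Crabp2 was higher in the arrays labelled cKO than in embryo. The log2 change was 1.17 ± 0.25 (SE; 95% limits 0.65 to 1.69; limma adjusted p = 0.021), a 2.25-fold ratio, and 3 of 5 arrays labelled cKO lay above every embryo array. The ranges overlapped because array 1 of E13 embryo, at 9.81, stood above arrays 2 and 3 of E13 cKO. Crabp2 was the only retinoid probe of 3 tested to pass here, where 0.478% of all tested probes were higher. The call was fragile. Without any 1 of 5 arrays (4 or 6 of E13 embryo; 1, 4 or 5 of E13 cKO) the adjusted p was between 0.059 and 0.088, and a fit of these 2 groups alone gave 0.12. Array 4 of E13 cKO, with the choroid plexus and ventral forebrain signal, had the highest Crabp2 value, and without it the change was 1.08 (adjusted p = 0.088). Without the 2 arrays that stand apart the change was 1.25 (adjusted p = 0.0031). The part of the marker signal of array 4 in the result was not tested.

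At E16 the Crabp2 difference between genotypes did not pass. The change was 0.56 ± 0.25 (SE; 95% limits 0.04 to 1.08; limma adjusted p = 0.72), and 4 of 6 arrays labelled cKO, against 0 of 5 embryo arrays, were detected. Without the 2 arrays that stand apart the change was 0.73 (adjusted p = 0.20). Against the background limit of the embryo arrays the ratio was at least 1.09-fold. None of the 3 tested retinoid probes passed between genotypes at E16, where 0.283% of all probes did and 1283 had an unadjusted p under 0.05. For the interaction none of the 3 passed either, against 0.00976% of all probes and 654 at an unadjusted p under 0.05.

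In the P2 neurons Crabp2 was not detected on any array. It stood at 4.64, 4.90, 4.74, 4.86 and 5.22, below every E13 embryo array. The mean of 4.87 ± 0.22 (SD, n = 5) was at least 8.57-fold lower than in E13 embryo (log2 change -3.76 ± 0.25 SE; limma adjusted p = 7e-13). Against E16 embryo both groups were below background, and no fold is given. Crabp2 was thus highest in E13 cKO, next in E13 embryo and then in E16 cKO, while E16 embryo and P2 neurons, both below background, have no order between them.

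Markers of several cell types also fell between E13 and E16, in embryo those of the cortex itself among them. The sum of 7 cortex identity genes ran from 13000 to 16000 in E13 embryo and from 8370 to 10800 in E16 embryo. There 3 of 7 genes passed as lower. In the arrays labelled cKO it ran from 11100 to 15200 at E13 and from 8410 to 12800 at E16. Of the 7 genes 1 passed there as higher and 0 as lower. In the P2 neurons the sum was 2390 to 4170. The summed linear signal of 5 measured Cajal-Retzius genes, which mark early neurons of the cortical surface, ran from 8900 to 15700 in E13 embryo and from 2490 to 4680 in E16 embryo. In the arrays labelled cKO it ran from 7980 to 12900 at E13 and from 1950 to 4090 at E16, but in the P2 neurons it reached 15800 to 28500. Of these genes 5 of 5 passed as lower at E16 in embryo and 4 of 5 in the cKO arrays. The P2 sum hides a split of the list. Against E13 embryo 2 of the 5 genes were higher in the P2 neurons and 3 lower, with a median change of -1.26. Against E16 embryo 4 were higher and 0 lower, with a median of 1.94. The sum of 4 choroid plexus and cortical hem genes ran from 276 to 650 in E13 embryo and from 157 to 212 in E16 embryo, with 2 of 4 genes lower. In the arrays labelled cKO it ran from 365 to 6620 at E13 and from 120 to 263 at E16, with 4 of 4 lower. Without array 4 of E13 cKO 2 of 4 passed. In the P2 neurons this sum ran from 1820 to 18900, and Ttr, at 10.76 to 14.18 on the log2 scale, was its brightest gene. Lmx1a was detected there on 0 of 5 arrays and Otx2 on 2. Against E13 embryo 1 of the 4 genes was higher in the P2 neurons and 2 lower, with a median change of -0.22. Against E16 embryo 2 were higher and 0 lower. The sum of 6 thalamus and habenula genes ran from 751 to 1760 in E13 embryo and from 336 to 388 in E16 embryo, where Gbx2, Pou4f1, Foxp2 and Rora were detected on no array and 3 of 6 genes passed as lower. In E13 cKO that sum was 3460, 1140, 2670, 2530 and 2780, lowest in the array that stands apart. The part of these cells in the Crabp2 result was not tested.

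Crabp1 (Entrez Gene 12903; chr9:54764748-54773110) was detected on every embryonic array and did not pass between stages. The E13 embryo arrays ran from 6.70 to 7.79 with a median of 7.49, and the E16 embryo arrays stood at 7.49, 7.32, 6.76, 6.38 and 6.64. These ranges overlapped, and the log2 change was -0.52 ± 0.35 (SE; 95% limits -1.23 to 0.20; limma adjusted p = 0.33). Between stages of the arrays labelled cKO it was -0.12 ± 0.35 (95% limits -0.84 to 0.59; adjusted p = 0.84). A fall as steep as that of Crabp2 lies outside both intervals.

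Between genotypes most Crabp1 values of the arrays labelled cKO lay above those of embryo at both stages, but neither difference passed. At E13 those arrays stood at 8.95, 7.18, 9.10, 8.77 and 8.33, and 4 of 5 lay above every embryo array. The exception, 7.18, was the array that stands apart. The means were 8.47 ± 0.77 (SD, n = 5) against 7.43 ± 0.41 (SD, n = 6), a change of 1.03 ± 0.35 (SE; 95% limits 0.32 to 1.75; limma adjusted p = 0.23). Without array 4 of E13 cKO it was 0.96 (adjusted p = 0.53).

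At E16 the arrays labelled cKO ran from 6.79 to 9.14 with a median of 8.50, and 5 of 6 lay above every embryo array. The exception, 6.79, was again the array that stands apart. The means were 8.34 ± 0.87 (SD, n = 6) against 6.92 ± 0.47 (SD, n = 5), a change of 1.42 ± 0.35 (SE; 95% limits 0.71 to 2.14; limma adjusted p = 0.088). Without both arrays that stand apart the change was 1.35 at E13 (adjusted p = 0.0013) and 1.73 at E16 (adjusted p = 1e-04). Array 2 of E13 cKO left out alone gave 1.35 (adjusted p = 0.021), and array 3 of E16 cKO left out alone gave 1.73 (adjusted p = 0.0016). The interaction was 0.39 ± 0.49 (SE; 95% limits -0.62 to 1.40; adjusted p = 1), so no difference between the stages was resolved.

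Genes of the thalamus and habenula list did not move together between genotypes. Of 6 measured, 1 passed as higher in the arrays labelled cKO at E13 and 2 at E16, with median changes of 0.36 and 0.21. Gbx2, a homeobox gene of the thalamus, passed at both stages. In E13 cKO it stood at 11.04, 7.56, 10.44, 10.42 and 10.38, and in E16 cKO 5 arrays lay between 9.11 and 9.65 while array 3 stood at 4.98, not detected. The arrays that stand apart were thus the lowest of their groups for Gbx2 as for Crabp1.

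Gbx2 was higher in the arrays labelled cKO by 2.49 at E13 (limma adjusted p = 0.039) and at least 7.51-fold at E16 (adjusted p = 0.0067), where 0 of 5 embryo arrays detected it. Without the 2 arrays that stand apart its change was 3.09 at E13 and 4.45 at E16 (adjusted p = 7.5e-10 and 1.2e-12), and without array 4 of E13 cKO it was 2.38 at E13 (adjusted p = 0.14). With all arrays Pou4f1 passed at E16, at least 1.77-fold higher (adjusted p = 0.039), but not at E13 (adjusted p = 0.16). Tcf7l2, a transcription factor gene of the thalamus, had lower means in the arrays labelled cKO, by -0.83 at E13 and -0.91 at E16 (adjusted p = 0.41 and 0.50). The changes of Lhx9 were 0.62 and 0.17, those of Foxp2 0.09 and 0.21, and those of Rora -0.17 and 0.20, and none passed. The sum of the 6 genes was 311 in array 3 of E16 cKO and 959 to 1200 in the other 5, against 336 to 388 in E16 embryo. The part of such cells in the Crabp1 result was not tested.

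In the P2 neurons Crabp1 was lower than in any embryonic array. It stood at 5.77, 5.43, 6.19, 5.65 and 5.26, and was detected in 3 of 5 arrays. The mean of 5.66 ± 0.36 (SD, n = 5) was 2.39-fold lower than in E16 embryo (log2 change -1.26 ± 0.36 SE; limma adjusted p = 0.0034) and 3.42-fold lower than in E13 embryo (-1.77 ± 0.35 SE; adjusted p = 6.2e-05). With each table normalised separately the changes were -0.29 (adjusted p = 0.49) and -0.82 (adjusted p = 0.04), so the size of the fall depends on levelling the P2 table with the others. Against E16 embryo 1 of 3 retinoid probes was lower and against E13 embryo 2 of 3, where 40.8% and 41.5% of all tested probes were lower. Counts of this size are near that background. Over all tested probes the median change was -0.156 and -0.145. The order of Crabp1 levels was E13 cKO, E16 cKO, E13 embryo, E16 embryo and P2 neurons, and of the neighbours tested only the last pair differed.

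**Figure D2:**
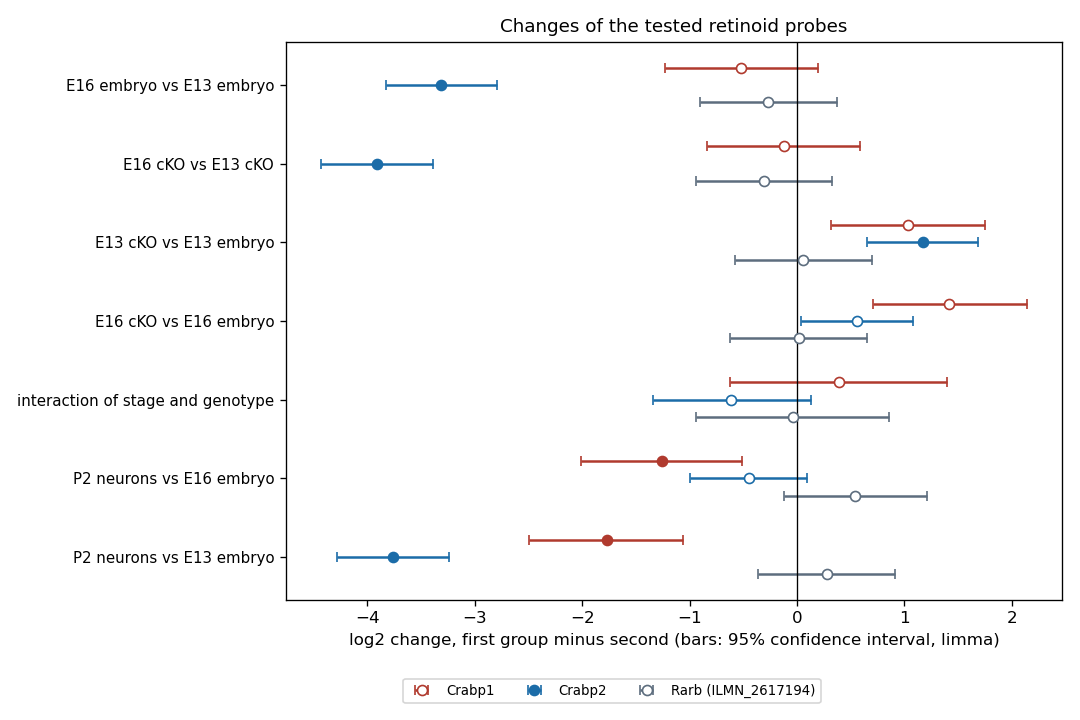
Log2 change of the 3 tested retinoid probes in 7 comparisons, first group minus second, with 95% confidence intervals from limma. Filled points passed at an adjusted p under 0.05 and open points did not. Crabp2 is at -3.31 and -3.91 between stages, while every interval of the Rarb probe includes 0.

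The enzyme genes were near or below background in all groups. Aldh1a2 (chr9:71215789-71296243), which makes retinoic acid, was detected on 0 of 27 arrays by either of its 2 probes, which ran from 4.42 to 5.42. Of 6 measured markers of the meninges, the tissue known for this enzyme, 0 were detected on any E16 embryo array and 0 to 2 on the E13 embryo arrays. Array 4 of E13 cKO detected 4 of them, with a summed linear signal of 889, and the other arrays of that group stood at 174 to 200. In the P2 neurons 6 of 6 were detected and the sum ran from 1510 to 3810. There 1 Aldh1a2 probe had a mean of 5.15 ± 0.28 (SD, n = 5) against 4.70 ± 0.11 in E16 embryo (SD, n = 5). The other probe had 4.67 ± 0.10 against 4.51 ± 0.04 (SD, n = 5 and 5). Each was detected on 0 of 5 P2 arrays, and these means all lay under the background limit, where values have no reliable order. Of the 6 markers, Foxc1, Col1a2, Col3a1, Dcn and Ogn passed the filter only through the P2 arrays. The count of 6 of 6 there was thus largely set by the filter. Of all 10 listed markers of the meninges, passing or not, 9 were detected on at least 1 P2 array. In E16 embryo 0 were, and in E13 embryo 2.

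Cyp26b1 (chr6:84571414-84593908), which breaks retinoic acid down, was detected on 1 of 27 arrays. That was array 4 of the P2 neurons, which stood at 5.00, 5.24, 5.16, 5.66 and 4.88, with a mean of 5.19 ± 0.30 (SD, n = 5). The E16 embryo mean was 4.52 ± 0.07 (SD, n = 5), and 5 of 5 P2 arrays lay above every E16 embryo array. The E13 embryo mean was 4.75 ± 0.20 (SD, n = 6), and there the ranges overlapped, with 3 of 5 P2 arrays above every E13 embryo array. No fold is given, since the P2 mean was itself under the background limit.

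Dhrs3 (chr4:144892534-144928209), which returns retinal to retinol and is known as a gene induced by retinoic acid, had higher means at E16 than at E13 by both of its probes. Its first probe had means of 4.73 ± 0.10 in E13 embryo (SD, n = 6) and 4.75 ± 0.09 in E13 cKO (SD, n = 5), against 5.37 ± 0.56 in E16 embryo (SD, n = 5) and 5.26 ± 0.33 in E16 cKO (SD, n = 6). The E16 embryo arrays stood at 4.67, 5.07, 5.30, 6.14 and 5.66, and only the array at 6.14 was detected. When every probe was tested without a filter, the change was 0.64 in embryo (limma adjusted p = 0.017) and 0.51 in the cKO arrays (adjusted p = 0.066). The second probe gave 0.32 (adjusted p = 0.074) and 0.47 (adjusted p = 0.005), and was detected on 0 arrays. At these levels the background limits any ratio.

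Among the receptors Rara (chr11:98927800-98974942) and Rxra (chr2:27676445-27763319) were detected on 0 of 27 arrays. Rara ran from 4.55 to 4.98 and Rxra from 4.64 to 5.58 over all arrays, and their group means spanned 0.14 and 0.18. A probe that stays under background does not show that the receptor gene is silent.

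Rxrg (chr1:167598362-167639623) was detected on 2 of 27 arrays. In E13 cKO it stood at 5.62, 4.62, 5.14, 5.82 and 5.58, with 1 of 5 detected, against 4.64 to 4.95 in E13 embryo. The low array of that group was the array that stands apart. The detected array was array 4, with Dlx1 of the ventral forebrain at 10.56 and Ttr of the choroid plexus at 12.51, against at most 7.93 and 7.34 in the other arrays of its group. The part of such cells in the Rxrg signal was not tested. In E16 cKO Rxrg ran from 4.51 to 4.79. Without a filter the Rxrg change between genotypes at E13 was 0.56 and did not pass (limma adjusted p = 0.52). The change from E13 to E16 in the cKO arrays was -0.71 (adjusted p = 0.025), and 3 of 6 arrays at E16 were under the lowest at E13.

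Rarb (Entrez Gene 218772; chr14:16430839-17082331), whose promoter repeat is printed above and which is known to be induced by retinoic acid through it, had 3 probes, detected on 12, 3 and 0 of 27 arrays. The probe that was never detected ran from 4.40 to 4.85. The tested probe had a mean of 5.71 ± 0.56 in E13 embryo and 5.44 ± 0.42 in E16 embryo, with SD over 6 and 5 arrays. Its mean was 5.77 ± 0.12 in E13 cKO and 5.46 ± 0.43 in E16 cKO, with SD over 5 and 6 arrays. It did not pass in any of the 7 comparisons. Between genotypes its change was 0.06 ± 0.31 at E13 (SE; 95% limits -0.58 to 0.70; limma adjusted p = 0.99) and 0.02 ± 0.31 at E16 (95% limits -0.62 to 0.65; adjusted p = 1). Without the 2 arrays that stand apart these changes were 0.08 and 0.05, and without array 4 of E13 cKO the first was 0.08.

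In the P2 neurons the Rarb signal was strongest in array 3. The tested probe stood at 5.53, 5.67, 7.54, 5.98 and 5.20, and the other detected probe at 5.48, 5.46, 7.76, 6.58 and 5.58. On both probes array 3 was highest and array 4 next, and the other 3 arrays lay near the background limit. The tested probe changed by 0.54 ± 0.32 against E16 embryo (SE; 95% limits -0.12 to 1.21; limma adjusted p = 0.14) and by 0.28 ± 0.31 against E13 embryo (adjusted p = 0.43). Without array 3 the second change was -0.11, while the first ran from 0.15 to 0.74 with single arrays left out. The other detected probe, tested only without a filter, was higher by 1.16 than in E16 embryo (adjusted p = 0.004; at least 1.33-fold, with 2 of 5 arrays detected). On it 5 of 5 P2 arrays lay above every E16 embryo array, and 2 of 5 above every E13 embryo array. Rxrg was also highest in array 3 of the P2 neurons, at 6.28.

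Array 3 and array 4 of the P2 neurons also carried the most signal of ventral forebrain, oligodendrocyte and glial markers. The sum of 7 ventral forebrain and interneuron genes was 385, 596, 6480, 2320 and 781 over the 5 arrays, with Dlx1 at 11.44 in array 3 and 10.10 in array 4 against 6.05 to 7.74 in the others. The sum of 3 oligodendrocyte lineage genes was 912, 921, 12200, 4990 and 1880, and that of 7 radial glial and astroglial genes 1480, 1900, 18700, 7480 and 2980. Array 3 was highest for the meninges as well, at 3810 against 1510 to 1880, and for the choroid plexus and cortical hem, at 18900 against 1820 to 10200. Rarb is known for its expression in the embryonic striatum, a ventral forebrain structure. The part of these cells in the Rarb signal was not tested.

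**Figure D3:**
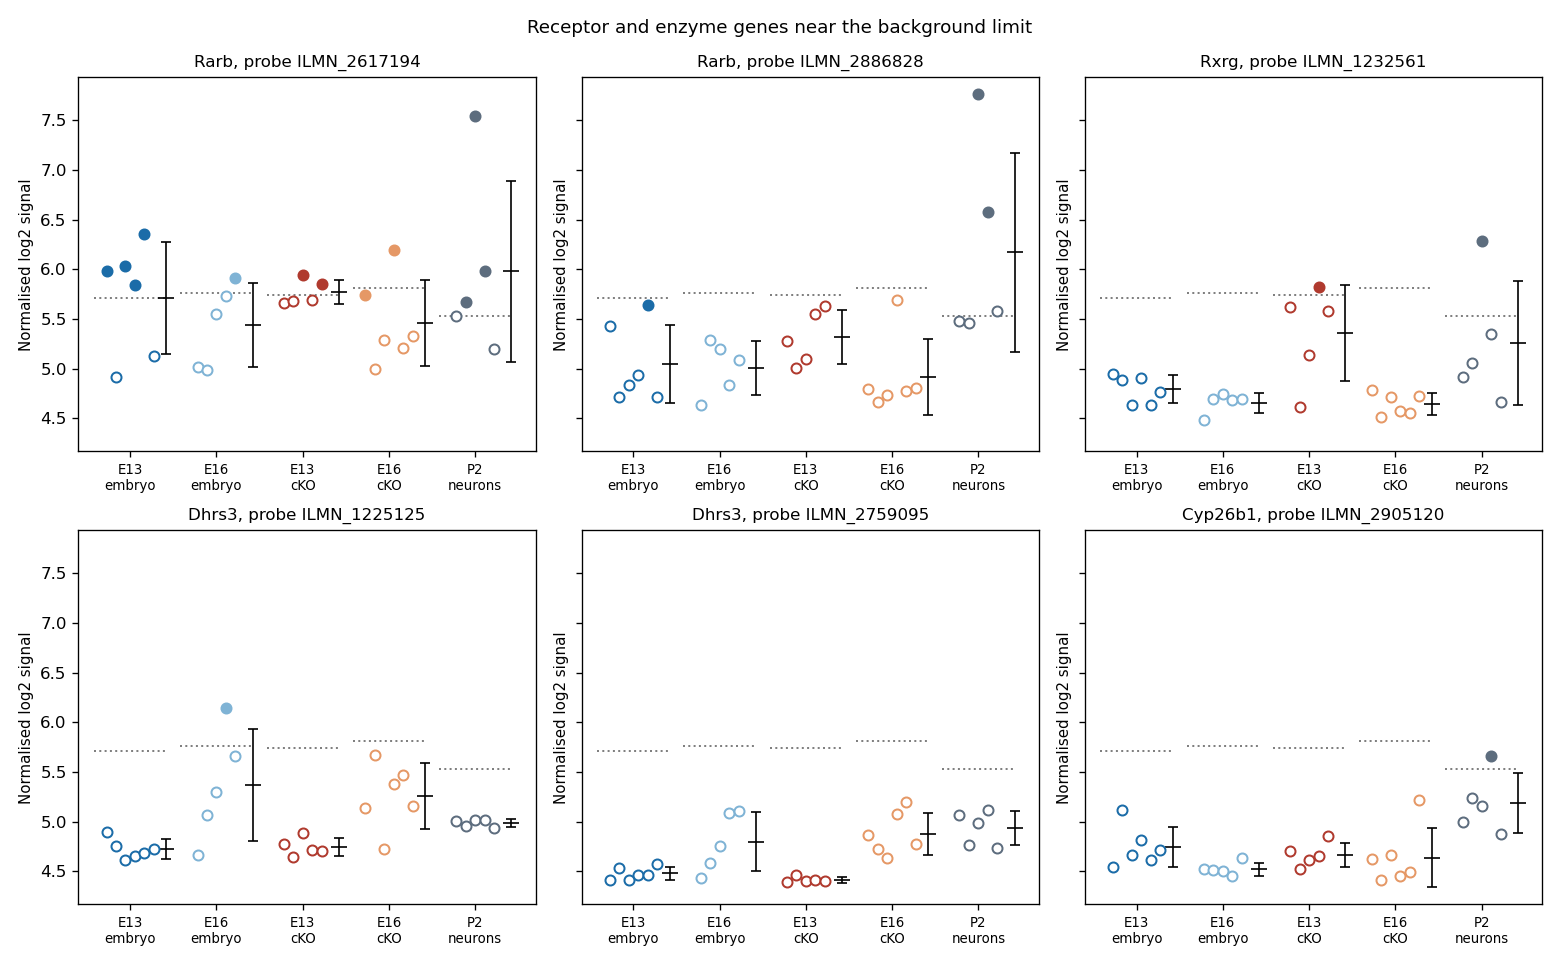
Normalised log2 signal of 6 dim probes of Rarb, Rxrg, Dhrs3 and Cyp26b1 on each array by group, with the group mean ± SD in black. Filled points are detected, open points are not, and dotted lines mark the mean background limit of the group. Most points lie under that limit, and Rarb and Rxrg are highest in a single P2 array, at 7.54, 7.76 and 6.28.

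Genes with profiles like those of the members were sought over all 27 arrays by the root mean square (RMS) difference between centred log2 profiles, as a description. Nearest to Crabp1, whose own RMS about its mean was 1.15, were Pou4f1 (0.49), a POU homeobox gene of the thalamus and habenula list, Lima1 (0.51), an actin-binding protein gene, and Zfp521 (0.54), a zinc finger gene. In E13 embryo, E16 embryo, E13 cKO and E16 cKO, Pou4f1 had means of 5.90, 4.97, 7.03 and 6.58. In the same order Lima1 had 9.33, 9.32, 10.39 and 10.25, so it differed between genotypes more than between stages. Zfp521 had 10.18, 9.22, 11.03 and 9.97, with lower means at E16 in both sets and higher means in the cKO arrays at both stages.

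Nearest to Crabp2, whose own RMS was 1.96, were the LIM homeobox gene Lhx9 (0.53), the transcription factor gene Ebf2 (0.56) and the cyclin gene Ccno (0.60). Lhx9 stands on the thalamus and habenula list and Ebf2 on the Cajal-Retzius list. Lhx9 had means of 9.19 in E13 embryo, 6.67 in E16 embryo, 9.81 in E13 cKO and 6.85 in E16 cKO. In the same order Ebf2 had 9.37, 5.75, 10.16 and 7.43, and Ccno had 9.25, 5.57, 9.77 and 5.78. Nearest to the second Rarb probe (own RMS 0.65) were Nacc2 (0.34), Col1a2 (0.35), a collagen gene of the meninges list, and Cd248 (0.38), each highest in the P2 neurons. These profiles share their arrays and their background limit.

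The wider retinoid pathway was described by 8 lists of 54 further genes, of which 25 were measured. Between E13 and E16 embryo 4 of the 25 rose and 2 fell, with a median change of 0.03 beside -0.01 over all genes, and 22.4% of all genes passed. In the cKO arrays 5 rose and 2 fell, where 24.2% of all genes passed. Between genotypes 0 of 25 passed by limma at E13 and 0 at E16, where 1.22% and 0.385% of all genes did, and for the interaction 0 passed, against 0.0188%. Without the 2 arrays that stand apart the genotype counts were again 0 and 0, and 0 passed at E13 without array 4 of E13 cKO. The stage counts of the cKO arrays without the 2 arrays were 3 higher and 2 lower. Over all 20498 probes 1692 had an unadjusted p under 0.05 between genotypes at E13.

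Single genes of the binding and response lists passed with stage, in either direction. Of 2 measured genes of retinol uptake and binding 1 rose. Rlbp1, which encodes a carrier of retinal and its precursors known from the retina, rose 4.17-fold in embryo, from 7.87 ± 0.52 (SD, n = 6) to 9.93 ± 0.07 (SD, n = 5; limma adjusted p = 3.8e-06), and 5.38-fold in the cKO arrays (adjusted p = 2.6e-07). It is also known as a gene of glia. Of 7 measured radial glial and astroglial genes 1, Slc1a3, passed as higher in embryo (4.48-fold), and 6 did not pass, with a median change of 0.12. In the cKO arrays 1 was higher and 1 lower, with a median of -0.14. Of 3 measured retinoic acid response genes 1 rose, 1 fell and 1 did not pass in either set. Meis1, a homeobox gene, fell 3.15-fold in embryo (adjusted p = 0.00082) and 2.51-fold in the cKO arrays. Its paralog Meis2 rose 1.62-fold and 1.47-fold (adjusted p = 0.00071 and 0.005), and Tgm2, a transglutaminase gene, was not detected at either embryo stage.

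Among the nuclear receptors of the lists, Nr2f2, a COUP factor that can compete with retinoid receptors for DNA, fell 2.64-fold in embryo (limma adjusted p = 3.4e-05) and 2.18-fold in the cKO arrays. Rxrb, a retinoid X receptor detected on all arrays, stood between 10.76 and 10.93 in all 4 embryonic group means and did not pass between them. Rarg was dim, at 5.49 to 5.90 in the embryonic means, and in the cKO arrays it was higher at E16 by 0.35 (adjusted p = 0.045; at least 1.07-fold, with 3 of 6 arrays detected), a call lost without the 2 arrays that stand apart. Fabp5, a further retinoic acid carrier, stood at 9.09 to 9.46 in the embryonic means and did not pass. Of 7 measured co-regulators 2 passed as higher at E16 in embryo. Tbl1xr1 rose by 0.41, a sign that 1 of its 4 kept probes had. The other was Nrip1 (adjusted p = 0.0035), but its means of 4.86 and 5.54 both lay under the mean background limits of 5.71 and 5.76, so no size is given.

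In the P2 neurons 8 of the 25 genes were higher and 10 lower than in E16 embryo, where 71.5% of all genes passed. Against E13 embryo 9 were higher and 8 lower, where 73.5% did. Of the 8 genes higher than in E16 embryo, 4 (Aldh1a3, Tgm2, Retsat and Nrip1) were detected on 0 to 2 of 22 embryonic arrays and so entered the test only through the P2 arrays, where they are high. Their values are a description, and no p is given. Aldh1a3, which like Aldh1a2 makes retinoic acid, was detected on 5 of 5 P2 arrays at 7.29 ± 0.59 (SD, n = 5) and on no embryonic array, at least 2.89-fold higher than in E16 embryo. Tgm2 was at least 3.61-fold higher, and Retsat, a retinol saturase gene, at least 2.01-fold. Nrip1, a receptor corepressor, was at least 2.54-fold higher than in E13 embryo, and its E16 embryo mean lay under background. Nr4a2, an orphan receptor that pairs with retinoid X receptors, was 8.99-fold higher than in E16 embryo (limma adjusted p = 7.3e-13).

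Other pathway genes were lower in the P2 neurons. Rdh5, a retinol dehydrogenase gene, was at least 2.98-fold lower than in E16 embryo (limma adjusted p = 3.6e-13), while Rdh11 and Rdh14, which act between retinol and retinal, were 1.78-fold and 1.41-fold higher. Sin3a, a scaffold of corepressor complexes, was 3.46-fold lower, Dgat1, an acyltransferase gene, 1.97-fold and Rxrb 1.66-fold. Meis1 was 12.5-fold lower than in E13 embryo (adjusted p = 4.2e-10), with 4 of 5 P2 arrays detected. Some non-neuronal markers were far above their embryonic levels in the P2 arrays too, with the endothelial gene Cldn5 at least 35.1-fold higher than in E16 embryo. Cldn5 was detected on 1 embryonic array and passed the filter only through the P2 arrays, so its ratio is a description. The part of non-neuronal cells in the pathway changes was not tested.

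**Figure D4:**
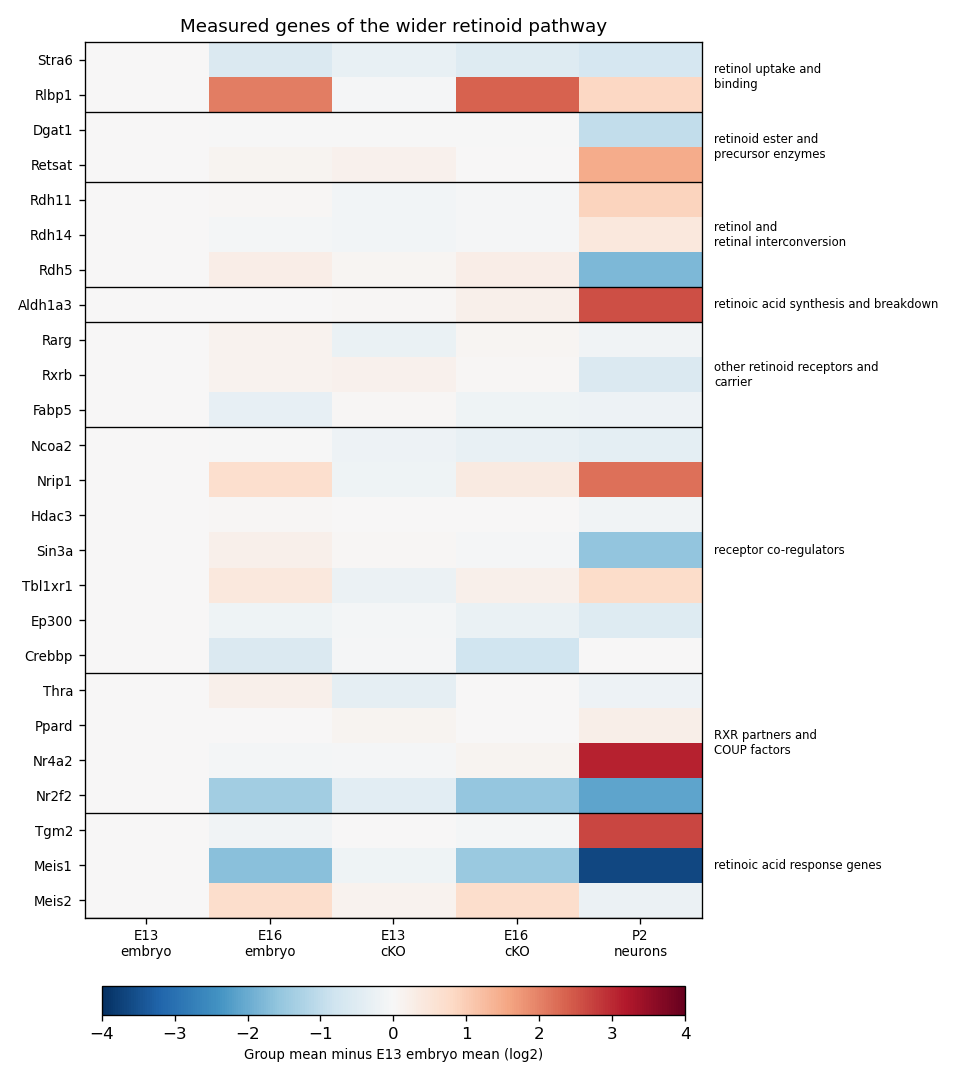
Group means of the 25 measured pathway genes as differences from the E13 embryo mean on the log2 scale, grouped by list. Rlbp1 is higher and Meis1 and Nr2f2 are lower at E16 in both sets of arrays, and the largest differences, for Meis1, Nr4a2, Tgm2 and Aldh1a3, are in the P2 neurons.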

How the data were processed

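Total RNA was labelled as biotinylated cRNA and hybridised to an Illumina mouse BeadChip, per the labels' protocols. The intensity values were deposited by the authors as non-normalised signals, per the file headers, and their range, -50.8 to 48266, shows that some background was already removed. Each signal was deposited with a detection p-value. The log2 values of the deposited series matrix hold 12377 probes and none of the 13 member probes, so they were not used for the members.

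With R 4.3.3 and limma 3.58.1, signals were corrected by normexp using the detection p-values, with an offset of 16, and quantile normalised over all 27 arrays. Of 45281 probes 20498 were kept, those detected (p under 0.01) on 5 or more arrays. An array detected 36.9% to 42.9% of its probes, and its median raw signal lay between 8.51 and 42.3. The number of arrays per group limits the precision. A linear model with 1 mean per group over all arrays was moderated by empirical Bayes, and 2-sided p-values of 7 comparisons were adjusted by Benjamini-Hochberg over all kept probes, with a threshold of 0.05. Where no array of a group was detected, the fold is a lower bound against that group's background limit. Genes of the wider lists were counted by the kept probe with the highest mean. Columns name the group of an array and carry a number of their own, which is not a replicate number of the labels. The numbers of the embryo and cKO columns interleave, and the labels name no pairing or litter. Arrays are numbered here by column order as a name. The E16 embryo samples were grouped by title, since their age field repeats E13, and the E13 cKO samples by title, since their descriptions repeat those of the P2 samples.

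The members, lists and tests were chosen with earlier results of these data known. Named genes were every member, passing genes of the lists with the largest change, and the 3 nearest profiles to each member whose group means span at least 1. Marker genes such as Gbx2, Tcf7l2, Slc1a3, Ttr, Dlx1 and Cldn5 were chosen after seeing their values. Changes of known size were simulated in 20498 probes for E13 cKO against E13 embryo. Of those of 0.5 on the log2 scale 19 of 50 were found, and of those of 1, 45 of 50. Of those of 2 and of 4, 50 of 50 each were found, with 5 false among all 169 calls. The simulated noise was independent between probes and arrays, with no array that stands apart, so these rates need not hold for the real arrays. Alternatives were no normexp, median scaling, separate tables, no filter or a detection limit of 0.05, 1 probe per gene, trended robust moderation, only the compared groups, and arrays left out. Counts of pathway genes without the arrays that stand apart were added after seeing the data.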

Additional observations from a re-analysis of the deposited data

Results flagged for a closer look

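In 65 sets of a member probe and a group, the highest or lowest array was set against the spread of the others by Dixon's criterion, which chance exceeds in about 1 of 20 sets. It was exceeded in 6 sets, each at a level that was not detected. Aldh1a2 stood at 5.08 in array 2 of E13 embryo by the first probe, with the others at 4.60 to 4.76, and at 5.08 in array 6 by the second probe, with the others at 4.52 to 4.68. Cyp26b1 stood at 5.22 in array 6 of E16 cKO, with the others at 4.41 to 4.67. The Rarb probe detected on 3 arrays stood at 5.69 in array 4 of E16 cKO, with the others at 4.67 to 4.81. Dhrs3 stood at 4.46 by its second probe in array 2 of E13 cKO, with the others at 4.39 to 4.41. Rxrg stood low, at 4.48, in array 1 of E16 embryo, with the others at 4.69 to 4.75.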

How the results depend on the processing

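The falls of Crabp2 with stage, in embryo (-3.45 to -3.07) and in the cKO arrays (-4.03 to -3.75), passed under all 20 alternatives each, leaving out single arrays included, and so did the falls of Crabp1 (-1.92 to -0.82) and Crabp2 (-4.03 to -3.15) from E13 embryo to P2. The counts of retinoid probes passing moved as follows. For P2 against E16 embryo 2 passed in place of 1 without normexp, under median scaling and when only these groups were fitted. Without a filter, with 13 probes tested, 2 passed between stages in embryo, 3 in the cKO arrays, and 6 for P2 against E16 and 6 against E13. With the detection limit of 0.05, with 7 tested, these counts were 2, 3, 4 and 5. Both settings test more dim probes by construction. Between genotypes at E13, 0 passed with only the compared groups and 2 without the 2 arrays that stand apart, and at E16 1 passed without them. Leaving out 1 array at a time gave 0 to 2 at E13 and 0 to 1 at E16. Shares of all probes passing under these settings are not given, so the counts are no result about the retinoid genes. With the main settings 22.4% and 24.2% of all genes passed between stages, in embryo and in the cKO arrays. For P2 it was 71.5% against E16 and 73.5% against E13, and between genotypes 1.22% at E13 and 0.385% at E16. With each table normalised separately, near-zero changes turned sign: Rarb between genotypes was -0.02 at E13 and -0.03 at E16, and Crabp2 from E16 embryo to P2 was 0.16. There Rarb passed for P2, at 1.46 against E16 and 1.21 against E13, and Crabp1 did not pass against E16. The cause was not tested. Leaving out single arrays turned the sign of changes that did not pass: Rarb between genotypes (-0.10 to 0.19 at E13, -0.13 to 0.14 at E16), its interaction (-0.19 to 0.12), its change from E13 embryo to P2 (-0.11 to 0.47) and Crabp1 between stages of the cKO arrays (-0.45 to 0.19). No paired analysis was possible because the deposited columns carry no replicate number of the labels. The series matrix gave no values for the members. Signals near background limit every statement on the enzymes, Rara, Rxra and Rxrg.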
